A study of Mus musculus with 7 samples.

Results

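The mouse Hox genes were followed across 7 cell populations, each measured on 1 single-colour 60-mer expression array. They were found by name: every probe of the array files whose gene name is Hoxa, Hoxb, Hoxc or Hoxd followed by a paralog number from 1 to 13, with nothing after it. This gave 39 genes of 34947 gene names, read by 45 probes: 11 genes in the HoxA cluster, 10 in HoxB, 9 in HoxC and 9 in HoxD. The study traced the origin of cells in the dermis that can form muscle. The 3 populations labelled as positive for Sdc4 (syndecan-4, a surface proteoglycan used to enrich muscle satellite cells) were the Myf5SOR+ Sdc4+ cells, the Cspg4- Sdc4+ cells and the CD1 Sdc4+ cells. The 3 Sdc4-negative populations were B195AP+ Sdc4-, Cspg4- Sdc4- and CD1 Sdc4-. The seventh was Cspg4+, given without an Sdc4 label.

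Myf5SOR+ cells came from the Cre line B6.129S4-Myf5tm3(cre)Sor/J, in which the Myf5 locus drives Cre. Cspg4+ and Cspg4- cells came from B6,FVB-Tg(Cspg4-cre)1Akik/J mice, in which a Cspg4 transgene drives Cre. B195AP+ cells came from the strain B195AP-Cre, whose driver the labels do not give, and CD1 cells from the outbred stock Crl:CD1(ICR). Each array stands for a pool, since 8 to 10 animals were used per phenotype. The labels name neither the age of the animals nor the body site of the skin. P-values for Sdc4+ against Sdc4- therefore measure the spread between arrays that also differ in mouse line. Those for CD1 against the Cspg4 line measure the spread between populations within the same line.

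Hox genes encode homeodomain transcription factors that give cells along the body axis their regional identity. Within each cluster the genes are ordered so that those at the 3′ end (low paralog numbers) are used in anterior regions, and those at the 5′ end (high numbers) in caudal trunk, distal limb and genital tissue. Fibroblasts of adult skin keep much of the Hox expression of the site they came from, and so do cells of skeletal muscle. HOX proteins bind DNA together with TALE homeodomain cofactors of the PBX, MEIS and PKNOX families, and Polycomb and trithorax complexes hold the clusters silent or active.

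Several probes read the parts of these genes that make HOX proteins alike, and they include probes behind the posterior genes described below. In the following lines capitals mark the codons for the conserved end of the homeodomain's DNA-contacting helix in Hoxc11 and Hoxc12, the codons of the PBX-binding hexapeptide in Hoxa6, and the stop codon that ends the Hoxc12 and Hoxd11 probes. The Hoxa13 probe, from the homeodomain, holds none of these.
Hoxa13: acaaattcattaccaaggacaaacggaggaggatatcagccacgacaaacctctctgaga
Hoxc11: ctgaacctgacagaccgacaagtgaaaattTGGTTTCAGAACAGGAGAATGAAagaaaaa
Hoxc12: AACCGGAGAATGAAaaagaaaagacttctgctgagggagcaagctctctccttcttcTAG
Hoxd11: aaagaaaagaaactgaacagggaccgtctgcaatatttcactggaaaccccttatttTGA
Hoxa6: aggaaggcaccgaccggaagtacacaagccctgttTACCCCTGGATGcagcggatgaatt
In the file's build, mm9, these probes lie at chr6:52208980-52209039 (Hoxa13, minus strand), chr15:102787022-102787081 (Hoxc11, plus), chr15:102768889-102768948 (Hoxc12, plus), chr2:74522136-74522195 (Hoxd11, plus) and chr6:52158194-52158253 (Hoxa6, minus). Codons of the helix or the hexapeptide, searched on the probe strand, were found in 4 of the 45 probes. Laid against each other without gaps, no probe matched a probe of another Hox gene at more than 29 of its bases, and the longest run shared by probes of different genes was 11 bases, between Hoxc11 and Hoxc12.

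Levels are given as log2 of the processed signal minus the 75th percentile of the array, so 0 is a spot as bright as that percentile. A probe was detected when at least 50% of its spots were well above background by the scanner software's own call, and a gene when any of its probes was. The Cspg4+ array detected the most spots, 57.2% against 45.9% to 50.8% on the other 6. All 7 arrays shared 1 slide, where the Sdc4+ arrays lay in one row and the others in the second, so row and Sdc4 label cannot be told apart. The B195AP+ array has a streaked corner (spot row 200 or lower together with spot column 130 or lower). All 7 dermal fibroblast markers tested, among them Col1a1 and Pdgfra, were detected on every array, whereas of 6 satellite cell markers Cdh15 and Itga7 were detected on all 7 arrays, Des on 5, Myod1 on CD1 Sdc4- alone, and Pax7 and Myf5 on none.

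Of the 39 genes, 27 were detected on at least 1 array (69.2%, beside 70.2% of all gene names) and 14 on all 7 (35.9%, beside 47.2%). The 14 were Hoxa5, Hoxa7, Hoxb2, Hoxb3, Hoxb4, Hoxb7, Hoxc4, Hoxc5, Hoxc6, Hoxc9, Hoxc10, Hoxd4, Hoxd8 and Hoxd9. Of these 14, 9 belong to groups 4 to 8. The 12 genes detected nowhere were Hoxa2, Hoxa4, Hoxa11, Hoxb1, Hoxb8, Hoxb13, Hoxc13, Hoxd1, Hoxd3, Hoxd10, Hoxd12 and Hoxd13. Per array, 18 to 20 Hox genes were detected on 6 of the arrays and 26 on Cspg4+. That is 46.2% to 66.7% of the 39, beside 52.3% to 64.8% of all gene names on the same arrays. Without the B195AP+ array, 16 genes were detected on all the rest.

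**Figure D1:**
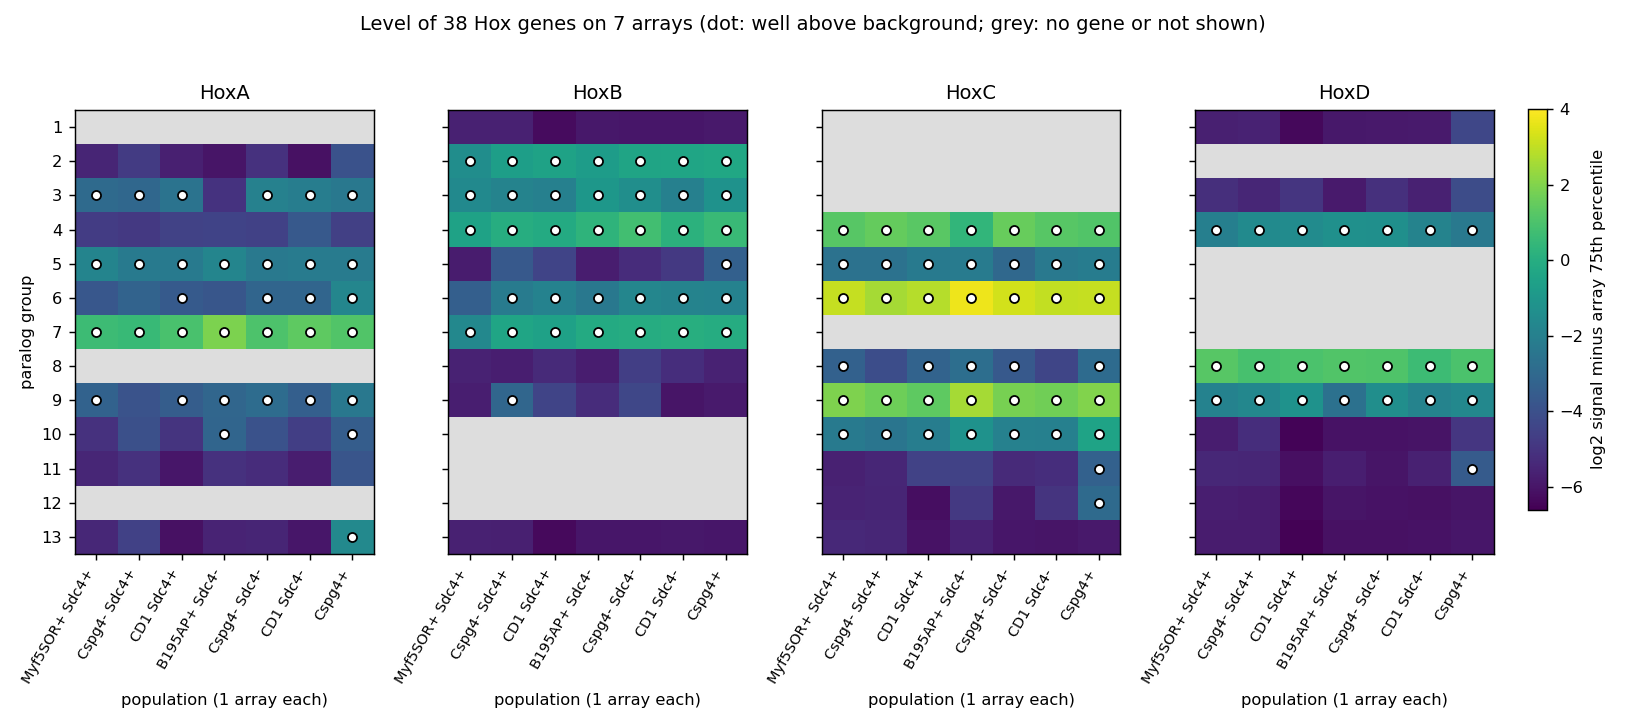
Level of 38 of the 39 Hox genes (rows: paralog group; panels: cluster) on the 7 arrays (columns), as log2 signal minus the array's 75th percentile; white dots mark genes well above background, and grey cells are paralogs that do not exist in the mouse cluster or are not shown. The dots fill the middle rows and, in rows 11 to 13, appear in the Cspg4+ column alone.

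Among the anterior genes (groups 1 to 3, 8 genes), 4 were detected on 6 of the arrays and 2 on B195AP+. Hoxb2, a hindbrain gene in the embryo, read -1.39, -0.66 and -0.49 on the Myf5SOR+, Cspg4- and CD1 Sdc4+ arrays. It read -0.74, -0.40 and -0.35 on the B195AP+, Cspg4- and CD1 Sdc4- arrays, and -0.27 on Cspg4+, so Myf5SOR+ was the lowest. Hoxa3, a gene of pharyngeal and neck development, was not well above background on B195AP+ (-5.06), where its spot lies in the streaked region, and lay between -3.05 and -1.95 on the rest. A second Hoxa3 probe was not well above background on any array, so these values rest on 1 probe.

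The central genes (groups 4 to 8, 15 genes) made up most of what was detected, 10 to 13 per array. Hoxc6, a thoracic gene, was above the 75th percentile on every array, from 2.57 on Cspg4- Sdc4+ to 3.72 on B195AP+. Hoxa7, another trunk gene, lay between 0.55 and 1.91, Hoxc4 between 0.39 and 1.52, and Hoxd8 between 0.68 and 1.25. The range of Hoxa5, a gene of lung and cervical patterning, over the 7 arrays was 0.52 and that of Hoxd8 0.57, the smallest among the 20 Hox genes that were well above background on at least 3 arrays. Hoxb4 (-0.49 to 0.80), Hoxc5 (-3.01 to -2.14) and Hoxd4 (-2.30 to -1.27) were also detected on every array. Hoxa6 was detected on 4 arrays, Hoxc8 on 5 and Hoxb6 on 6.

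**Figure D2:**
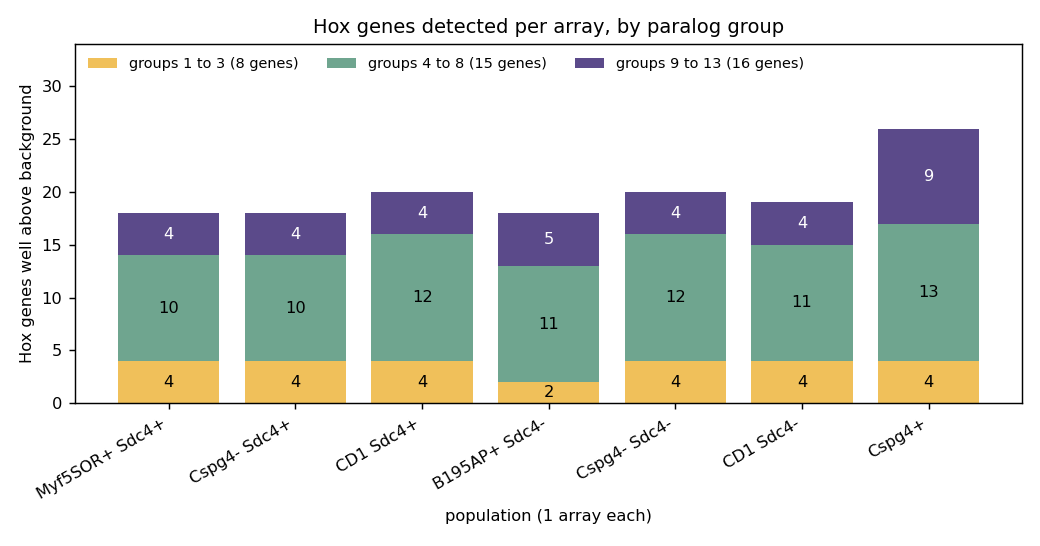
Number of Hox genes well above background on each of the 7 arrays (stacked bars from 0), divided by paralog group. Cspg4+ has 26 with 9 in groups 9 to 13, while the other arrays have 18 to 20 with 4 or 5 in those groups.

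The posterior genes (groups 9 to 13, 16 genes) divided at group 10. In group 9, whose members pattern the lower trunk and the forelimb, Hoxc9 lay between 1.38 and 2.58 and Hoxd9 between -2.66 and -1.21 on all 7 arrays. Hoxa9 was detected on 6, and its second probe on 4. Hoxb9 was detected on the Cspg4- Sdc4+ array alone, at -3.12, with -5.98 to -4.35 on the rest. Hoxc10, a lumbar and hindlimb gene, was the sole gene of groups 10 to 13 detected on all 7 arrays. It read -2.22, -2.49 and -2.11 on the Sdc4+ arrays, -1.20, -1.95 and -2.0 on B195AP+, Cspg4- Sdc4- and CD1 Sdc4-, and -0.44 on Cspg4+. Hoxa10 was detected on B195AP+ (-3.13), where its spot lies in the streaked region, and on Cspg4+ (-3.48).

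The Cspg4+ array, from cells with a history of Cspg4 (the NG2 proteoglycan of pericytes), detected more Hox genes than the other 6, as it detected more genes overall. It held 6 of the 12 genes of groups 10 to 13, B195AP+ 2 and the other 5 arrays 1 each. The 2 on B195AP+, Hoxa10 and Hoxc10, have their spots in its streaked region. Of the 17 Hox genes at background on the other 6 arrays, 5 were detected on Cspg4+: Hoxa13, Hoxc11, Hoxc12 and Hoxd11, genes of distal limb, tail and genital patterning, and Hoxb5, a central gene. That is 29.4%, beside 20.1% of all 13032 genes that were at background on those arrays, so the share lies near that of the array as a whole. With the same share of probes called detected on each array, 1 of 17 remained (Hoxa13), beside 7.38% of all such genes. With the software's weaker call (signal positive and significant against background), 1 of 6 was found on Cspg4+ alone, Hoxd1, beside 37.9%.

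Hoxa13 had both of its probes well above background on Cspg4+. Its brighter probe read -1.62 on Cspg4+ and -5.43, -4.56, -6.13, -5.55, -5.50 and -5.96 on Myf5SOR+, Cspg4- Sdc4+, CD1 Sdc4+, B195AP+, Cspg4- Sdc4- and CD1 Sdc4-. Its second probe, the homeodomain sequence printed above, read -2.57 on Cspg4+ and -6.50 to -4.96 on the others, and was likewise well above background on Cspg4+ alone. Because the other arrays give only a limit, the difference is at least 4.67-fold, taking each dim array at the lowest value called well above background there. That value is no strict bound, since the call is made per spot. Hoxb6, for example, read -3.40 on Myf5SOR+ without being called, above the lowest called value of -3.53. All folds given here as "at least" are approximate in that sense. On B195AP+ both Hoxa13 spots lie in the streaked region. Every detection on Cspg4+ rests on 1 hybridisation.

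For the other posterior genes the values on Cspg4+ were lower. Hoxc12 read -2.95 there and -6.21 to -4.83 elsewhere, at least 1.87-fold apart. Hoxc11 read -3.31 against -5.63 to -4.51, at least 1.46-fold. Hoxd11 read -3.54 against -6.16 to -5.43, at least 1.23-fold, and its second probe was not detected on any array. Hoxb5 read -3.34 against -5.80 to -3.65, at least 1.42-fold. Hoxa11 was spotted 10 times and read -3.80 on Cspg4+, where 2 of its spots were left out as outliers and 1 was well above background. Hoxd12, Hoxd13, Hoxc13 and Hoxb13, also posterior, stayed at background on Cspg4+ (-6.02 to -5.89). Genes detected on all 7 arrays differed by a median of 0.01 between Cspg4+ and the mean of the other 6, and the 14 such Hox genes by 0.14.

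**Figure D3:**
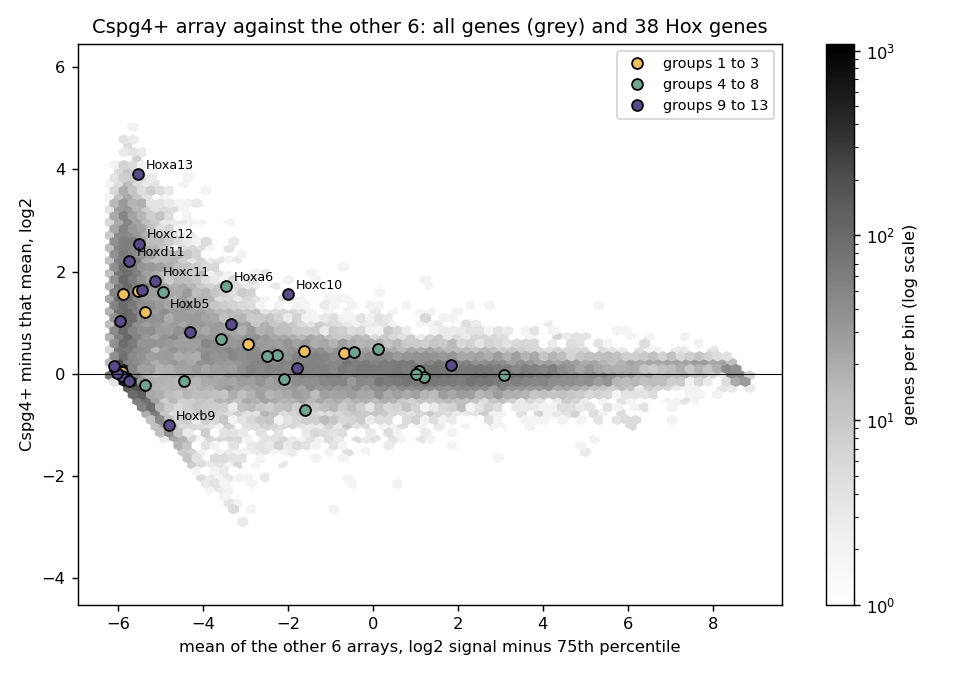
Difference between the Cspg4+ array and the mean of the other 6 (vertical axis, log2) against that mean (horizontal axis, log2 signal minus 75th percentile), for all genes (grey bins) and for 38 of the 39 Hox genes (circles, coloured by paralog group). At the dim end the values of the other 6 arrays are at background, so a height there, that of Hoxa13 included, measures no fold. Hoxc10 lies at 1.55 and Hoxa6 at 1.72, and neither was compared with genes of like level. Hoxa6 was at background on Myf5SOR+, Cspg4- Sdc4+ and B195AP+.

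Against the 2 other arrays of its own mouse line (Cspg4- Sdc4+ and Cspg4- Sdc4-), Cspg4+ read 2-fold or more higher for 8 of 27 Hox genes by processed values, values at background included, where 15.4% of all 23257 genes compared were. These were Hoxa6, Hoxa9, Hoxa13, Hoxb5, Hoxc10, Hoxc11, Hoxc12 and Hoxd11. A gene entered this count, and the other counts of 2-fold differences, when any array in the comparison detected it. The same rule set the 15.4%, and these shares were not tested against each other. Of the 8, Hoxa13, Hoxb5, Hoxc11, Hoxc12 and Hoxd11 were detected on Cspg4+ alone and so entered only through the array where they read high. Counted by their limits, Hoxa13 was at least 4.40-fold higher, while Hoxc12 (at least 1.76-fold), Hoxc11 (1.37-fold), Hoxb5 (1.34-fold) and Hoxd11 (1.16-fold) fell short of 2-fold. Hoxb9 read 2-fold or more lower, beside 2.79% of all genes, but was at background on Cspg4+ and on Cspg4- Sdc4-, so it has no fold. Hoxc10 was detected on all 3 arrays, and Hoxa6 and Hoxa9 were at background on Cspg4- Sdc4+. The second Hoxa9 probe did not read higher on Cspg4+ than on Cspg4- Sdc4-. It was at background on Cspg4+ (-3.88) and detected on Cspg4- Sdc4- (-3.19). Hoxa6 read -1.73 on Cspg4+ and -3.78 to -3.15 elsewhere. No array repeats the Cspg4+ population, and no test was made of these differences. Of 5 pericyte markers 3 were detected on Cspg4+ and 3 or 4 on the other arrays, with a summed level of 4.92 there and 4.84 to 5.32 elsewhere. All 4 melanocyte markers were detected on Cspg4+ and 1 to 4 on the others, with a summed level of -0.92 and -2.30 to -0.65. Their part in the result was not tested.

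Between the Sdc4 groups no Hox gene changed by limma at an adjusted p of 0.05. Of the 20 Hox genes tested 0 were called, beside 0% of 19760 genes, and the smallest adjusted p in limma over all genes was 0.245. At an unadjusted p under 0.05 limma gave 2 of 20 Hox genes, Hoxa7 and Hoxb4, beside 9.18% of all genes. The median Sdc4+ minus Sdc4- difference was -0.28 over the 20 Hox genes and -0.03 over all genes, and 13 of the 20 lay below 0, beside 53.1% of all genes. The Hox median was -0.07 without the Myf5SOR+ array, -0.016 with normexp background correction and 0.009 without the filter on dim probes.

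The genes lower in all 3 Sdc4+ arrays than in any Sdc4- array were Hoxa7, Hoxb4, Hoxb7 and Hoxc10 (4 of 20, 20%, beside 9.26% of all genes). Hoxa7 read 0.68, 0.55 and 0.95 on the Sdc4+ arrays (mean 0.72 ± 0.20 SD, n = 3 arrays) and 1.91, 1.06 and 1.36 on the Sdc4- arrays (mean 1.44 ± 0.43 SD, n = 3 arrays). The difference was -0.72 (SE 0.27, limma adjusted p = 0.515). The Hoxa7 spot lies in the streaked region of B195AP+. Its difference was -0.49 both without the B195AP+ array and with that region missing. Hoxb4, a gene of neck and blood stem cell biology, read -0.49, -0.01 and -0.11 against 0.28, 0.80 and 0.22. It differed by -0.64 (SE 0.24, limma adjusted p = 0.515), with CD1 Sdc4- and Cspg4- Sdc4+ the closest arrays across the groups.

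Hoxb7, a trunk gene, read -1.66, -0.35 and -0.55 on the Sdc4+ arrays and -0.10, -0.03 and 0.03 on the Sdc4- arrays, with Cspg4+ at -0.02. Its difference of -0.82 (SE 0.36, limma adjusted p = 0.558) was -0.42 without the Myf5SOR+ array, the lowest of the 7, and -0.48 with normexp. Hoxc10, with the values given above, differed by -0.56 (SE 0.27, limma adjusted p = 0.592). That difference was -0.16 with normexp, -0.33 with the mouse line as a fixed block, and -0.30 both without the B195AP+ array and with its streaked region missing. With the line as a fixed block Hoxa7 and Hoxb7 each differed by -0.46. With the streaked region set to missing on the B195AP+ array, 6 Hox genes were lower without overlap, Hoxa3 and Hoxa6 being added, beside 10.6% of all genes. The Hoxa3 difference was 0.20 with the region and -0.81 without it. Without the B195AP+ array there were 8, beside 12% of all genes, and without the Myf5SOR+ array 7, beside 14.7%.

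**Figure D4:**
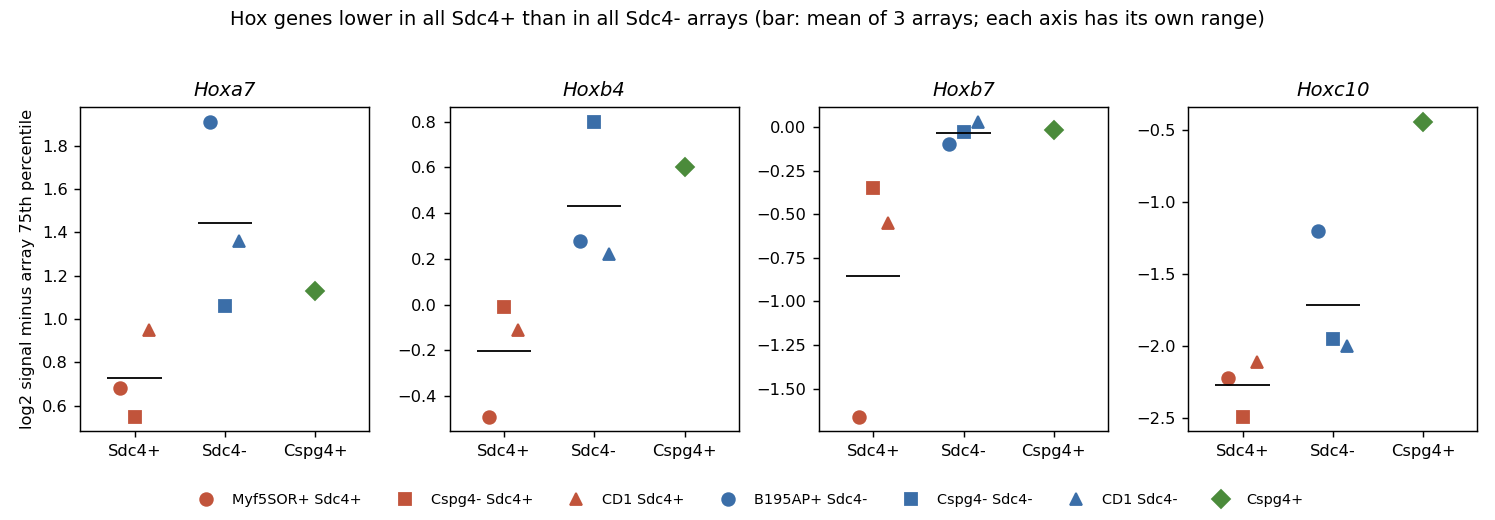
Level of the 4 Hox genes whose 3 Sdc4+ arrays (red) all lay below the 3 Sdc4- arrays (blue), with Cspg4+ in green; the vertical axis is log2 signal minus the array's 75th percentile, with its own range per gene, and bars are group means. Hoxb7 is spread by the Myf5SOR+ array at -1.66 and Hoxa7 by the B195AP+ array at 1.91.

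By cluster, the 5 HoxB genes tested all had lower means in Sdc4+ cells (median difference -0.51, from -0.82 to -0.35), beside 53.1% of all genes below 0. Myf5SOR+ was the lowest array for Hoxb2, Hoxb4, Hoxb6 and Hoxb7, and Hoxb6 was at background there (-3.40). The HoxB median was not recomputed without that array. Within CD1 the 5 differences ran from -0.58 to 0.02 (Hoxb3), and within the Cspg4 line from -0.81 to -0.26. HoxA had 4 of 6 below 0 (median -0.09), HoxC 3 of 6 (median -0.19) and HoxD 1 of 3 (median 0.10). None was called in any cluster. Sarcomere markers (8 genes, among them Ttn and Myh3) were also lower in the Sdc4+ arrays: 2 to 6 were detected there and all 8 on each Sdc4- array. Their summed level was -0.98 to -0.09 in Sdc4+ arrays and 2.33 to 5.72 in Sdc4- arrays. Their part in the Hox values was not tested, and in pooled cells fewer cells of a type and less RNA per cell cannot be told apart.

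Within 1 mouse line the Sdc4 difference can be read without a change of line, from 1 array on each side and with no test. In CD1, Hoxc8 read more than 2-fold higher in Sdc4+ cells by its processed values, at -3.23 and -4.38, beside 3.2% of all genes. It was not well above background in the Sdc4- cells, which makes the difference at least 1.63-fold. No Hox gene of 20 was 2-fold lower in CD1, beside 3.56%. In the Cspg4 line 2 of 21 Hox genes, with Hoxb9 among them, read 2-fold or more higher in Sdc4+ cells by processed values, beside 5.57% of all genes, and Hoxa3 and Hoxa9 2-fold or more lower, beside 4.88%. Hoxb9 was at background in the Sdc4- cells and is at least 1.73-fold higher by its limit. Hoxa9 was at background in the Sdc4+ cells and is at least 1.70-fold lower by its limit. Of the 20 genes, 11 were lower in Sdc4+ cells in both lines, 2 higher in both and 7 of opposite sign. The shares over all genes were not counted, and some signs rest on very small differences (Hoxa5, -0.03 in CD1 and 0.05 in the Cspg4 line). Others rest on values at background, as for Hoxc8 on Cspg4- Sdc4+ (-4.09).

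The second tested comparison asked whether Hox levels differed between mouse lines. CD1 (2 arrays) was set against the Cspg4 line (3 arrays), and 0 of 20 Hox genes were called by limma, beside 1.22% of 19760 genes. Those 241 calls were 2 without CD1 Sdc4+, 17 without CD1 Sdc4-, 21 without Cspg4- Sdc4-, 108 without Cspg4+ and 14 with the Sdc4 group as a covariate, with 0 Hox genes called each time. The median CD1 minus Cspg4 difference was -0.09 over the Hox genes and -0.05 over all genes. Hoxb3, a neck-level gene, had the smallest adjusted p. It read -1.98 and -2.0 in CD1 and -1.87, -1.38 and -1.19 in Cspg4- Sdc4+, Cspg4- Sdc4- and Cspg4+ cells, a difference of -0.52 (SE 0.24, limma adjusted p = 0.351). Its second probe read -2.34 and -2.25 in CD1 and -1.99, -2.01 and -2.19 in the Cspg4 line, again lower in CD1.

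The Myf5SOR+ and B195AP+ lines have 1 array each, and no test was made of their values. On the Myf5SOR+ array Hoxb2, Hoxb4, Hoxb6 and Hoxb7 were each at their lowest of the 7, and the share of all genes lowest there was not counted. Against the mean of the other Sdc4+ arrays, Hoxb6, Hoxb7 and Hoxb9 read 2-fold or more lower by processed values (3 of 21, beside 5.45% of all genes) and none 2-fold higher (beside 3.21%). Hoxb6 read -3.40 there, not well above background, and -2.37 to -1.75 on the other 6 arrays. By processed values it lay 2.55-fold below the other Sdc4+ arrays. This is no limit, since its reading was above the lowest value called on Myf5SOR+ (-3.53). Hoxb7 read -1.66 there and -0.55 to 0.03 on the others, and Hoxb4 -0.49 and -0.11 to 0.80. Hoxb9 was detected in neither the Myf5SOR+ nor the CD1 Sdc4+ cells, so it has no fold. Hoxb3 did not follow, at -1.56 on Myf5SOR+, the median of the 7 arrays.

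Over the Hox genes detected everywhere, the B195AP+ array was the farthest from the others with its streaked region included. Over these 14 genes, its median absolute difference from another array was 0.52 to 0.70, while the other 15 pairs of arrays differed by 0.20 to 0.43. Hoxa7, Hoxb7, Hoxc4, Hoxc5, Hoxc6 and Hoxc10, all among the 14, have their spots in that region. The distances were not recomputed without them. Over 16321 genes the B195AP+ pairs differed by 0.36 to 0.45 and the rest by 0.17 to 0.36. Against the mean of the other Sdc4- arrays Hoxa10 and Hoxc8 read 2-fold or more higher by processed values (2 of 21, beside 7.38% of all genes) and 3 read 2-fold or more lower, with Hoxa3 and Hoxd9 among them (beside 10.3%). Hoxa10 was at background on the other Sdc4- arrays, which makes it at least 1.73-fold higher, and Hoxc8 was at background on 1 of them. Hoxa3, at background on B195AP+, is at least 3.49-fold lower by its limit. The Hoxa10 and Hoxa3 spots behind these 2 folds lie in the streaked region of B195AP+. Hoxd9, whose spot lies outside the streaked region, read -2.66 on B195AP+ and -1.91 to -1.21 on the others. Hoxc9, also outside it, read 2.58 and 1.38 to 2.01. Hoxc6 and Hoxa7 were highest and Hoxc4 lowest on B195AP+, and the spots of those 3 genes lie inside the region.

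**Figure D5:**
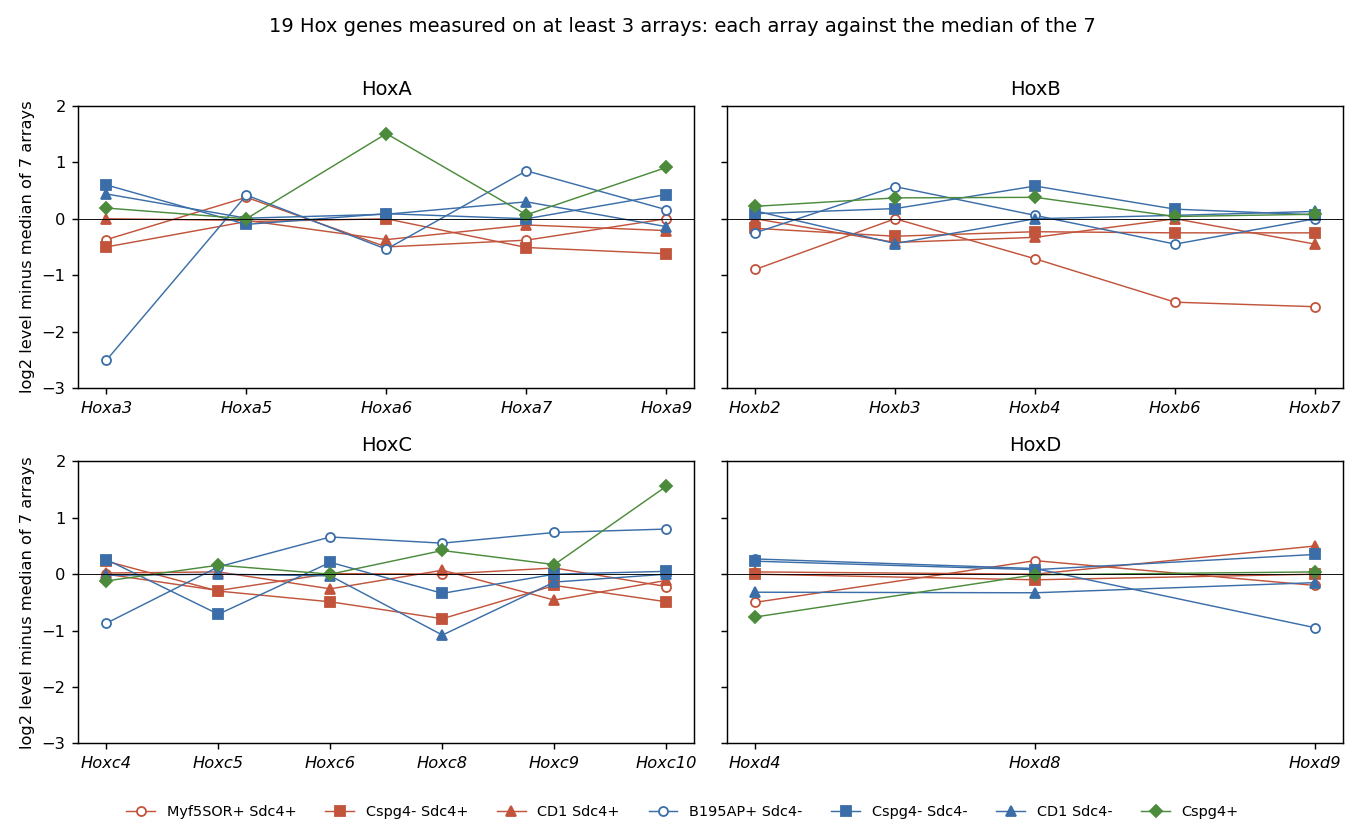
Level of 19 of the 20 Hox genes tested, on each array, minus the gene's median over the 7 arrays (log2), in cluster order from 3′ to 5′; red lines are Sdc4+ arrays, blue Sdc4- and green Cspg4+. Myf5SOR+ (open red circles) drops along HoxB to -1.56 at Hoxb7, B195AP+ (open blue circles) is low at Hoxa3, and Cspg4+ (diamonds) is high at Hoxa6 and Hoxc10.

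Over the 7 arrays the median SD of the 20 Hox genes was 0.45, and that of all genes tested 0.34.

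Of 9 TALE cofactors, which partner the HOX proteins, 8 were detected on all 7 arrays, where 47.2% of all gene names were, and Pbx4 on Cspg4+ alone (-1.72, with -6.08 to -4.62 elsewhere). None was called in either contrast. Meis1, a cofactor of the posterior HOX proteins, read 2.68, 2.56 and 2.61 on the Sdc4+ arrays and 4.15, 3.20 and 3.17 on the Sdc4- arrays without overlap. The difference was -0.89 (SE 0.30, limma adjusted p = 0.493). Of 17 Polycomb genes 16 were detected on all arrays and 0 called. Of 7 trithorax genes and H3K27 demethylases, 6 were detected on all arrays and 0 called. Kmt2a, the trithorax methyltransferase that maintains Hox expression, differed by -0.65 between the Sdc4 groups (SE 0.26, limma adjusted p = 0.532). It read -3.54, -2.77 and -2.84 on the Sdc4+ arrays and -2.35, -2.27 and -2.58 on the Sdc4- arrays. On Myf5SOR+, the lowest of these, it was at background.

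Genes that set up Hox expression in the embryo were mixed. Of 17, 8 were detected on all arrays and 6 on none, among them Cdx1, Cdx2 and Cdx4, which activate posterior Hox genes. None was called. Aldh1a2, which makes the retinoic acid that induces 3′ Hox genes, read -1.89, -0.52 and -1.62 on the Sdc4+ arrays and -0.26, 0.10 and -0.05 on the Sdc4- arrays (difference -1.27, SE 0.37, limma adjusted p = 0.469). Rarb, a retinoic acid receptor that retinoic acid itself induces, was higher in CD1 by 0.95 (SE 0.19, limma adjusted p = 0.111), at -0.52 and -0.60 against -1.37, -1.78 and -1.35. Cyp26b1, which breaks retinoic acid down, was highest on the CD1 Sdc4+ array at 6.59.

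Of 22 other genes of body position, 10 were detected on all arrays, 7 on none, and 0 were called. Tbx5, the forelimb T-box gene, was detected on all 3 arrays of the Cspg4 line (-2.91, -2.63 and -2.79) and on CD1 Sdc4- (-3.10). It was at background on Myf5SOR+, CD1 Sdc4+ and B195AP+ (-6.04 to -5.35). Tbx4 and Pitx1, which mark the hindlimb, were detected on none. Tbx18, expressed in somites and trunk mesenchyme, read 0.50, 0.64 and 0.29 on the Sdc4+ arrays and -0.66, -0.17 and -0.32 on the Sdc4- arrays (difference 0.86, SE 0.21, limma adjusted p = 0.446). Tbx5 differed between CD1 and the Cspg4 line by -1.79 by processed values (SE 0.83, limma adjusted p = 0.352). That includes the background value of CD1 Sdc4+ (-6.04), while CD1 Sdc4- read -3.10, beside -2.91 to -2.63 in the Cspg4 line.

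Noncoding transcripts inside the clusters were read by other probes of the array. Hoxa11os, which runs antisense to Hoxa11 in the limb, was detected on CD1 Sdc4+ (-3.67), B195AP+ (-2.17), Cspg4- Sdc4- (-2.34), Cspg4+ (-2.39) and CD1 Sdc4- (-3.23), and not on Myf5SOR+ (-5.39) or Cspg4- Sdc4+ (-4.04). Hoxa11 itself was detected on none of the 7. The antisense transcript was thus detected on all Sdc4- arrays and on 1 of the 3 Sdc4+ arrays. HOTAIR, a HoxC transcript between Hoxc11 and Hoxc12, had 5 probes, of which 1 was detected on all 7 arrays (-2.65 to -2.20) and 4 on none. Hoxd3os1 was detected on 4 arrays, with Cspg4+ the brightest at -2.89.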

How the data were processed

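RNA of 7 pools (10 to 200 ng, per the labels' protocols) was read on Agilent arrays. The deposited array files hold 1-channel fluorescence intensity per spot, and per the file headers come from Feature Extraction 11.5.1.1, with probe positions in mm9. The deposited flags per spot (well above background, positive and significant, outlier) are the software's own calls. A deposited table of the whole series gives log2 values, for which lumi is named in the submitters' processing notes. Its centring is unknown, and it served as an alternative.

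Levels are log2 of the processed intensity after subtraction of the log2 75th percentile of the array. Outlier spots were set to missing, spots of a probe averaged, and the probe with the highest mean taken for each gene. Genes well above background on at least 3 arrays (19760) entered limma 3.58.1 (under R 4.3.3): 3 group means for Sdc4, and 4 line means for CD1 against the Cspg4 line, Benjamini-Hochberg at 0.05. The fits were tested on simulated data with noise well below that of the median gene and no correlation within a line. That checks only that planted differences are returned, and does not measure how often real ones would be found. Signal limits the precision, with 1 array per population. Named were the 39 Hox genes, except 1 that is counted but not reported here, and up to 4 genes per list. Hox members, lists and comparisons were chosen with earlier results of these data known, and Cspg4+ against the other 6, equal-share detection and counts without single arrays after seeing the data.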

Additional observations from a re-analysis of the deposited data

Results flagged for a closer look

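The Sdc4+ minus Sdc4- difference had opposite signs in the CD1 and Cspg4 lines for 7 of 20 Hox genes, from 1 array on each side, and the difference between lines was not tested. The share of opposite signs over all genes was not counted. For Hoxc8 it was 1.15 in CD1 and -0.45 in the Cspg4 line (log2), for Hoxd9 0.66 and -0.34, for Hoxd4 0.36 and -0.23, and for Hoxd8 0.33 and -0.18. Hoxc8 was at background on CD1 Sdc4- (-4.38) and on Cspg4- Sdc4+ (-4.09), so its differences use processed values. By its limit in the Cspg4 line (at least 0.98-fold lower) the sign there is not settled. The 3 HoxD genes tested therefore all ran opposite ways in the 2 lines. Hoxb3 gave 0.02 and -0.48, Hoxa5 -0.03 and 0.05, and Hoxc4 0.04 and -0.03.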

How the results depend on the processing

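No Hox gene was called in either contrast under any alternative run. Over all genes, the Sdc4 contrast gave 0 calls except 3 with the mouse line as a random block. The line contrast gave 241 and moved to 623 with normexp, 28 without the filter on dim probes, 14 with the Sdc4 group as a covariate, and 2 to 265 leaving out 1 array (2 without CD1 Sdc4+, 17 without CD1 Sdc4-, 21 without Cspg4- Sdc4- and 108 without Cspg4+). The Hox median of the Sdc4 contrast (-0.28) was -0.016 with normexp and 0.009 without the filter, and -0.373 to -0.074 leaving out 1 array. That of the line contrast was -0.288 without the filter and -0.186 to 0.000 leaving out 1 array. With the weaker detection call 29 Hox genes were found on Cspg4- Sdc4+ and 29 on CD1 Sdc4-, and 1 on Cspg4+ alone in place of 5. With an equal share of probes per array that was also 1. Hox genes lower without overlap in Sdc4+ numbered 7 without Myf5SOR+ and 8 without B195AP+ in place of 4. The cause of these shifts was not tested. Hoxa7, Hoxb4, Hoxb7 and Hoxc10 (Sdc4) and Hoxb3 (line) kept their sign under the alternatives run. Hoxa3 (0.20 in the Sdc4 contrast) was -0.81 without the streaked region, -0.81 (without B195AP+) to 0.75 leaving out 1 array, -0.26 with the line as a random block and -0.77 with it as a fixed block. No paired analysis by replicate number was possible because every label carries the same number; as a fixed block the line gave 0 calls. Signal over background limits the dim genes. Counts of 2-fold differences and log2 differences use their processed values, and only limits are given as folds, except for Hoxb6 on Myf5SOR+.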
